A study of Homo sapiens with 6 samples.

Results

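Collagen-modifying and crosslinking enzymes were followed in Caki2 cells with and without PBRM1, as 10 genes chosen by name for their function and all present among the 25369 genes of the count files: the prolyl 4-hydroxylase subunits P4HA1 and P4HA2, the lysyl hydroxylases PLOD1 and PLOD2, the prolyl 3-hydroxylases LEPRE1, LEPREL1 and LEPREL2 (now also named P3H1, P3H2 and P3H3), the collagen chaperone SERPINH1, and the lysyl oxidases LOX and LOXL2. Caki2 is a human cell line of clear cell renal cell carcinoma (ccRCC) that makes no PBRM1 protein, the subunit that defines the PBAF form of the SWI/SNF chromatin remodeling complex. RNA-Seq compared 3 samples of Caki2+Vector, which carry an empty doxycycline-inducible lentiviral vector, with 3 samples of Caki2+PBRM1, which carry the same kind of vector with PBRM1. Both groups were selected stable lines grown with doxycycline at 2 µg/ml, so the drug is shared by the controls, and each group is 1 transduced line. The replicates are named A, B and C and are described as biological. All differences below are Caki2+PBRM1 against Caki2+Vector.

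A collagen chain is modified while it is still unfolded in the endoplasmic reticulum. Prolyl 4-hydroxylases add the hydroxyl groups that make the triple helix stable at body temperature, prolyl 3-hydroxylases modify a few further prolines, and lysyl hydroxylases prepare lysines for sugar attachment and for crosslinks. SERPINH1 (HSP47) binds the folded triple helix until it leaves for the Golgi. Outside the cell, the copper enzymes LOX and LOXL2 oxidize lysines so that neighbouring molecules become covalently joined. The hydroxylases need oxygen, iron and 2-oxoglutarate, and several genes of the group are known targets of hypoxia-inducible factors (HIF), which ccRCC cells often keep active.

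Between 7312955 and 10835355 reads lay on genes in each sample. PBRM1 itself, the check of the labels, had normalized counts of 195.0, 182.3 and 182.2 in Caki2+Vector A, B and C and of 2431.7, 2520.7 and 2682.4 in Caki2+PBRM1 A, B and C. Its transcript was therefore present in the control line too, at a level far below the re-expressing line. Caki2+Vector A stood apart from its replicates, with a chi-square per degree of freedom of 3.09 against B and 2.84 against C, where the other 4 pairs of replicates gave 1.19 to 1.34. The kidney lineage marker PAX8 was at 2071.6 ± 161.4 (SD, n = 3) and 2093.6 ± 41.2. KRT8 and KRT18 were called lower and NDUFA4L2, a HIF target of ccRCC, was called higher (104.3 ± 29.1 and 392.7 ± 32.8). Summed counts of the 8 fibroblast markers lay within 105.5 to 114.3 in the controls and within 103.3 to 131.6 with PBRM1, with none of the 3 tested ones called and with DCN, LUM, THY1, FAP and COL3A1 under 2 counts in every sample. The endothelial and leukocyte lists summed to at most 10.4 counts, with CDH5 and CD3E listed at 0. The part of the KRT8, KRT18 and NDUFA4L2 shifts in the results on the enzymes was not tested.

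Nearly all of the 10 chosen enzymes rose with PBRM1. The choice was made with earlier results of these data known. The paralogs P4HA3, PLOD3, LOXL1, LOXL3 and LOXL4, which are outside the 10, were not called. Of the 10 genes, all passed the filter on low values, 9 were called higher and 1, LEPREL1, lower (limma on log2(normalized count + 1), Benjamini-Hochberg adjusted p under 0.05 over 13303 tested genes). Over all tested genes 16.2% were called higher and 13.0% lower. The median log2 fold change (log2 change below, on that scale) of the 10 genes was 0.32 (range -0.10 to 1.12), beside a median of -0.004 over all tested genes. In each of the 10 genes the 3 samples of one group did not overlap the 3 of the other, with Caki2+PBRM1 above in 9 and below in 1. Over all tested genes, Caki2+PBRM1 lay wholly above in 22.1% and wholly below in 19.6%. An exact two-sided permutation test of 3 against 3 samples gave p = 0.1 for each gene, which is the smallest this design allows. In bulk RNA, a change in the number of cells that express a gene and a change in RNA per cell cannot be told apart.

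**Figure D1:**
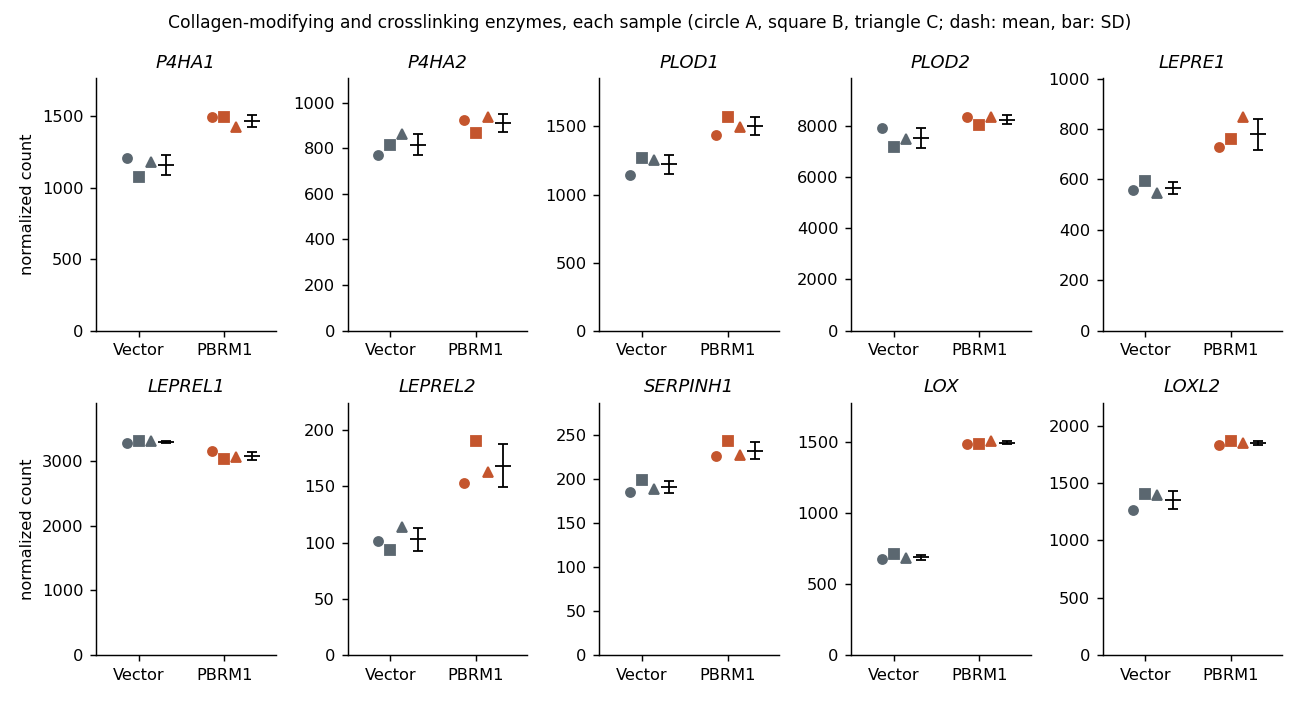
Normalized read counts (y axis, from 0) of the 10 enzymes in each Caki2+Vector sample (grey) and each Caki2+PBRM1 sample (orange), with the mean and SD of each group beside the points. The groups are separate in all 10 panels, LOX shows the widest gap relative to its level, and LEPREL1 is the only panel in which Caki2+PBRM1 lies below.

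The size of the changes ranged from small to more than a doubling. LOX ranked 201 among the 13303 genes by log2 fold change, with 1.5% of genes above it. LEPREL2 had 3.59% of genes above it, LEPRE1 7.08%, LOXL2 7.24% and P4HA1 10.5%. These 5 genes come from 3 different enzyme families. PLOD1 and SERPINH1 followed with 12.6% and 13.3%. P4HA2 and PLOD2 were closer to the middle, with 23.8% and 26.7% of genes above them, and LEPREL1 had 68.5%. LOX was the only one of the 10 with a log2 fold change over 1, a size reached by 249 genes in all.

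**Figure D2:**
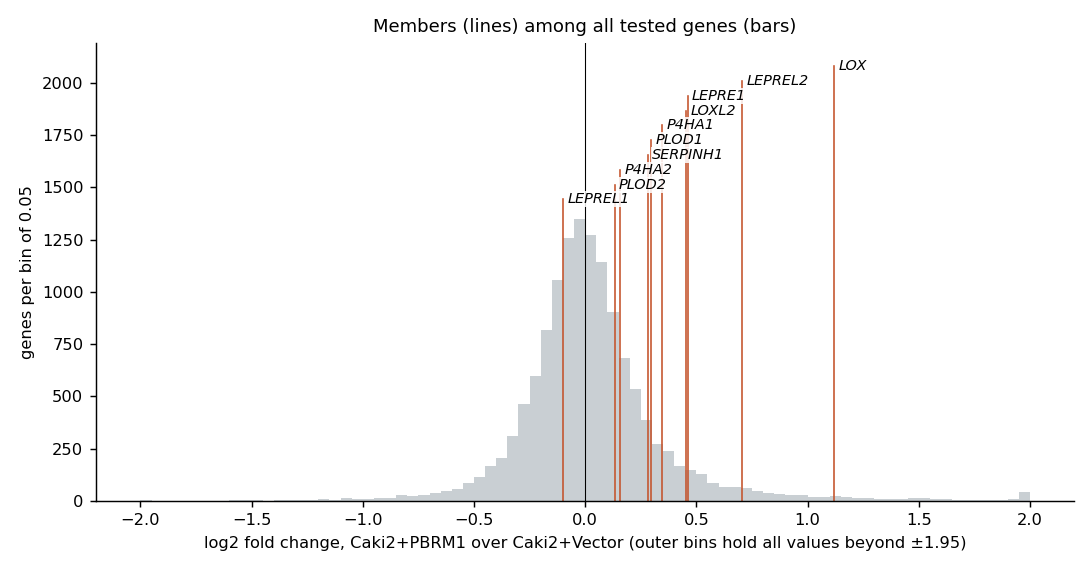
Distribution of the log2 fold change over 13303 tested genes (grey bars, number of genes per bin of 0.05), with an orange line at the value of each enzyme. The lines run from LEPREL1 at -0.10 to LOX at 1.12, and 9 of 10 lie right of 0. The height of a line has no meaning.

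Among the prolyl 4-hydroxylase subunits, P4HA1, the main catalytic subunit of most cells, had normalized counts of 1210.8, 1078.0 and 1183.0 in Caki2+Vector and 1496.9, 1494.1 and 1422.6 in Caki2+PBRM1. The lowest sample with PBRM1 was thus above the highest control. Its log2 change was 0.35 ± 0.05 SE (limma, adjusted p = 2.01e-06). P4HA2, the second catalytic subunit, was at 772.5, 815.3 and 863.0 in the controls and 926.1, 865.7 and 938.3 with PBRM1. Control C and PBRM1 sample B almost touched, and the log2 change was 0.16 ± 0.05 SE (limma, adjusted p = 0.0288). That call was lost when reads were scaled by their total (adjusted p = 0.151), in DESeq2 (adjusted p = 0.0922), and in limma without Caki2+Vector A (0.0656), Caki2+Vector B (0.0605), Caki2+PBRM1 A (0.118) or Caki2+PBRM1 C (0.145), each an adjusted p. An antisense gene, P4HA2-AS1, shares 548 bases, or 10.6%, of the P4HA2 exon length, and since the counting is not stated to use strand, reads from this stretch are uncertain. It was counted at means of 22.7 and 25.7.

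Both lysyl hydroxylases of the group were higher. PLOD1, which acts mainly on lysines of the helix, was at 1144.5, 1271.7 and 1253.7 in Caki2+Vector and at 1439.5, 1570.6 and 1495.6 in Caki2+PBRM1, with a clear gap between the groups. Its log2 change was 0.30 ± 0.05 SE (limma, adjusted p = 2.36e-05). PLOD2, which hydroxylates the telopeptide lysines that form the stable crosslinks of stiff tissue, was the most abundant of the 10 genes, also per kb, at 7922.8, 7158.5 and 7491.0 in the controls and 8341.5, 8039.5 and 8345.1 with PBRM1. Control A came close to PBRM1 sample B. The log2 change was 0.13 ± 0.04 SE (limma, adjusted p = 0.00539), a small change carried by high counts. It was no longer called with scaling by total reads (log2 fold change 0.08, adjusted p = 0.104), without Caki2+PBRM1 A (adjusted p = 0.0537) or without Caki2+PBRM1 C (adjusted p = 0.0517).

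The 3 prolyl 3-hydroxylases did not move together. LEPRE1, the enzyme of the collagen 3-hydroxylation complex, had 555.7, 594.3 and 546.5 normalized counts in Caki2+Vector and 729.0, 761.7 and 847.7 in Caki2+PBRM1. All samples with PBRM1 were well above all controls, and the log2 change was 0.46 ± 0.06 SE (limma, adjusted p = 6.6e-07). LEPREL2 was among the least abundant of the 10, supported by 95 to 214 reads per sample, at 101.3, 93.5 and 113.9 in the controls and 152.7, 190.2 and 162.8 with PBRM1. Its groups were separate in spite of the low counts, and its log2 change of 0.71 ± 0.11 SE (limma, adjusted p = 1.41e-05) was the second in size. LEPREL2 shares 114 exon bases (4.33%) with GPR162 on the same strand, which had means of 13.4 and 17.6.

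LEPREL1, known for acting on type IV collagen of basement membranes, went the other way. It had 3271.7, 3303.9 and 3303.2 normalized counts in Caki2+Vector and 3145.5, 3030.0 and 3058.4 in Caki2+PBRM1. The controls lay within a narrow band and every sample with PBRM1 lay under it. The log2 change was -0.10 ± 0.04 SE (limma, adjusted p = 0.0457), next to the threshold. The call was lost in DESeq2 (adjusted p = 0.0953), with no filter on low counts (0.0672), and without any 1 of Caki2+Vector B (0.082), Caki2+Vector C (0.086), Caki2+PBRM1 A (0.0715), Caki2+PBRM1 B (0.191) or Caki2+PBRM1 C (0.162).

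SERPINH1 was at 185.6, 198.4 and 188.2 normalized counts in Caki2+Vector and at 226.4, 242.7 and 227.4 in Caki2+PBRM1. The groups were separate, and the log2 change was 0.28 ± 0.08 SE (limma, adjusted p = 0.012). The call was lost in DESeq2 (adjusted p = 0.0753) and without Caki2+PBRM1 B (adjusted p = 0.0744). A processed pseudogene, SERPINH1P1, is annotated on chromosome 9, and reads that match both copies could be counted for neither.

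LOX changed most. It had 672.1, 708.6 and 680.8 normalized counts in Caki2+Vector and 1487.2, 1487.9 and 1504.0 in Caki2+PBRM1. Both groups were tight and far apart, with means of 687.2 ± 19.0 and 1493.0 ± 9.5 (SD, n = 3). The log2 change was 1.12 ± 0.05 SE (limma, adjusted p = 2.24e-17), a ratio of means of 2.17. LOXL2, which crosslinks type IV collagen among other substrates, rose from 1261.0, 1404.9 and 1393.9 to 1834.9, 1864.8 and 1853.2. Control A was the lowest sample, the 3 samples with PBRM1 were nearly equal, and the log2 change was 0.45 ± 0.05 SE (limma, adjusted p = 5.65e-09). Without Caki2+Vector A the log2 fold changes were 1.10 for LOX and 0.40 for LOXL2. LOX shares 138 exon bases with SRFBP1 on the other strand (means of 184.9 and 157.9), and LOXL2 shares 120 with ENTPD4 on its own strand (474.8 and 451.8). The part of reads from the shared bases in these counts was not tested.

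Levels were compared between genes as normalized counts per kb of exon (GENCODE exons, GRCh37). In Caki2+Vector the order ran from PLOD2 at 1403.5 per kb through LEPREL1 (887.1), PLOD1 (411.1), P4HA1 (395.5), LOXL2 (363.7), LEPRE1 (182.1), P4HA2 (157.7) and LOX (129.7) to SERPINH1 (39.2) and LEPREL2 (39.1). PLOD1 and P4HA1 overlapped between samples, as did P4HA1 and LOXL2, and SERPINH1 and LEPREL2, while the other neighbours in this order did not. With PBRM1 the order changed at 2 places. LOX, at 281.8 per kb, passed P4HA2 (175.7) and LEPRE1 (251.0), and LEPREL2, at 64.1, passed SERPINH1 (47.7), with no overlap between samples at either place. This order depends on the exon lengths, which come from another annotation than the counts. In mean counts not divided by length, LOX also passed P4HA2, from 687.2 against 816.9 to 1493.0 against 910.1. On that scale LOX was above LEPRE1 (565.5) already in Caki2+Vector. LEPREL2 stayed below SERPINH1 in both groups, at 168.6 against 232.2 with PBRM1. PLOD2 stayed first at 1537.4 per kb and LEPREL1 second at 829.2.

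The make-up of each family was followed as the share of a gene in the family's counts per kb within 1 sample, a measure that does not depend on the scaling of the library. LOX made up 24.7% ± 0.76 (SD, n = 3) of the 5 lysyl oxidases in Caki2+Vector and 34.6% ± 0.17 in Caki2+PBRM1, a gain of 9.89 percentage points. LOXL2 went from 69.2% ± 0.97 to 61.0% ± 0.27, a lower share of the family although its own count rose. The groups did not overlap for either share (exact permutation p = 0.1, the smallest possible). Among the prolyl 3-hydroxylases, LEPRE1 went from 16.4% ± 0.64 to 21.9% ± 1.51, LEPREL2 from 3.53% ± 0.36 to 5.60% ± 0.68, and LEPREL1 from 80.0% ± 0.31 to 72.5% ± 1.66, again with no overlap (exact permutation p = 0.1 for each). LEPREL1 thus stayed by far the main transcript of that family.

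In the other families the main enzyme's share was not separated by group. P4HA1 made up 70.8% ± 2.08 and 73.5% ± 1.20 of the prolyl 4-hydroxylase catalytic subunits, with overlapping samples (exact permutation p = 0.2, n = 3 per group). PLOD2 made up 65.0% ± 3.16 and 64.5% ± 0.73 of the lysyl hydroxylases (exact permutation p = 1.0). Its difference of -0.58 percentage points became 1.24 without Caki2+Vector A. PLOD1 had a share of 19.1% ± 1.14 and 21.2% ± 1.12, separate per kb (exact permutation p = 0.1) but overlapping when counts were not divided by length (exact permutation p = 0.2).

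**Figure D3:**
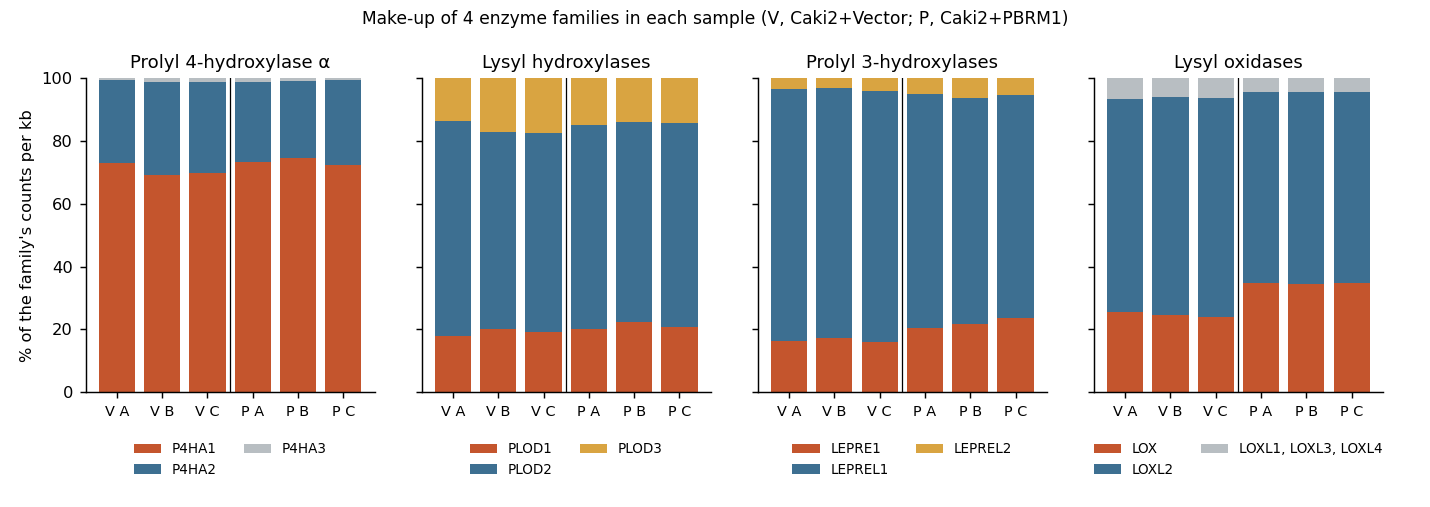
Share of each gene in its family's normalized counts per kb of exon (y axis, %), in each of the 3 Caki2+Vector samples (V) and the 3 Caki2+PBRM1 samples (P). LOX takes a larger part of the lysyl oxidase bar in every P sample (34.6% against 24.7% on average) and LEPREL1 a smaller part of the prolyl 3-hydroxylase bar (72.5% against 80.0%), while P4HA1 and PLOD2 overlap between the groups in the first 2 families.

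Outside the 10 genes, the list of other genes of collagen modification and folding had 10 of 11 tested. Of these, 5 were called higher, 0 lower and 5 not called, beside 16.2% higher and 13.0% lower over all tested genes. The median log2 fold change of the list was 0.24 (range -0.10 to 0.58). P4HB, the protein disulfide isomerase that serves as the beta subunit of prolyl 4-hydroxylase, rose from 10533.4 ± 708.9 to 14103.2 ± 352.3 (log2 change 0.42 ± 0.04 SE, limma, adjusted p = 9.96e-09). FKBP10, a collagen prolyl isomerase that works with PLOD2, rose from 1866.7 ± 78.1 to 2799.0 ± 24.9, a log2 fold change of 0.58. The further called genes were LEPREL4, a non-enzymatic relative of LEPRE1 (0.35), the galactosyltransferase COLGALT1 (0.29) and the isomerase FKBP14 (0.36), each as a log2 fold change.

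The partners of LEPRE1 in the 3-hydroxylation complex were not called. CRTAP was at 1628.6 ± 30.9 in Caki2+Vector and 1540.3 ± 75.0 in Caki2+PBRM1 (log2 change -0.08 ± 0.04 SE, limma, adjusted p = 0.183). PPIB was at 1171.6 ± 127.8 and 1089.8 ± 28.7 (log2 change -0.10 ± 0.06 SE, limma, adjusted p = 0.231). PLOD3, the third lysyl hydroxylase, was at 969.8 ± 135.6 and 968.0 ± 35.8, with the lowest value, 817.9, in Caki2+Vector A. The other 3 lysyl oxidases were scarce and none was called. LOXL1 had the highest level of them, at 54.7 ± 1.4 and 68.4 ± 5.0, with an adjusted p of 0.108 by limma although its groups did not overlap.

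The collagen chains and elastin, the substrates of these enzymes, did not follow one direction. Of 18 listed genes 10 were tested, 4 were called higher and 2 lower, beside 16.2% and 13.0% of all tested genes. The median log2 fold change was 0.08 (range -0.53 to 1.84). COL4A1, a chain of the common type IV collagen, fell from 7519.1 ± 246.5 to 5475.8 ± 72.0 (log2 change -0.46 ± 0.03 SE, limma, adjusted p = 1.12e-11), and its partner COL4A2 was at 6302.5 ± 532.5 and 5827.2 ± 125.8 with an adjusted p of 0.0864. COL5A2 was also called lower, from 62.0 to 42.9, a call lost in DESeq2. COL4A4, COL4A5, COL27A1 and COL24A1 were called higher, with log2 fold changes of 0.47, 0.78, 0.45 and 1.84, the last from only 5.8 counts in Caki2+Vector. Of the fibril-forming type I collagen, COL1A1 was at 74.3 ± 6.8 and 78.5 ± 11.9 and COL1A2 was listed at 0 in 5 of the 6 samples.

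**Figure D4:**
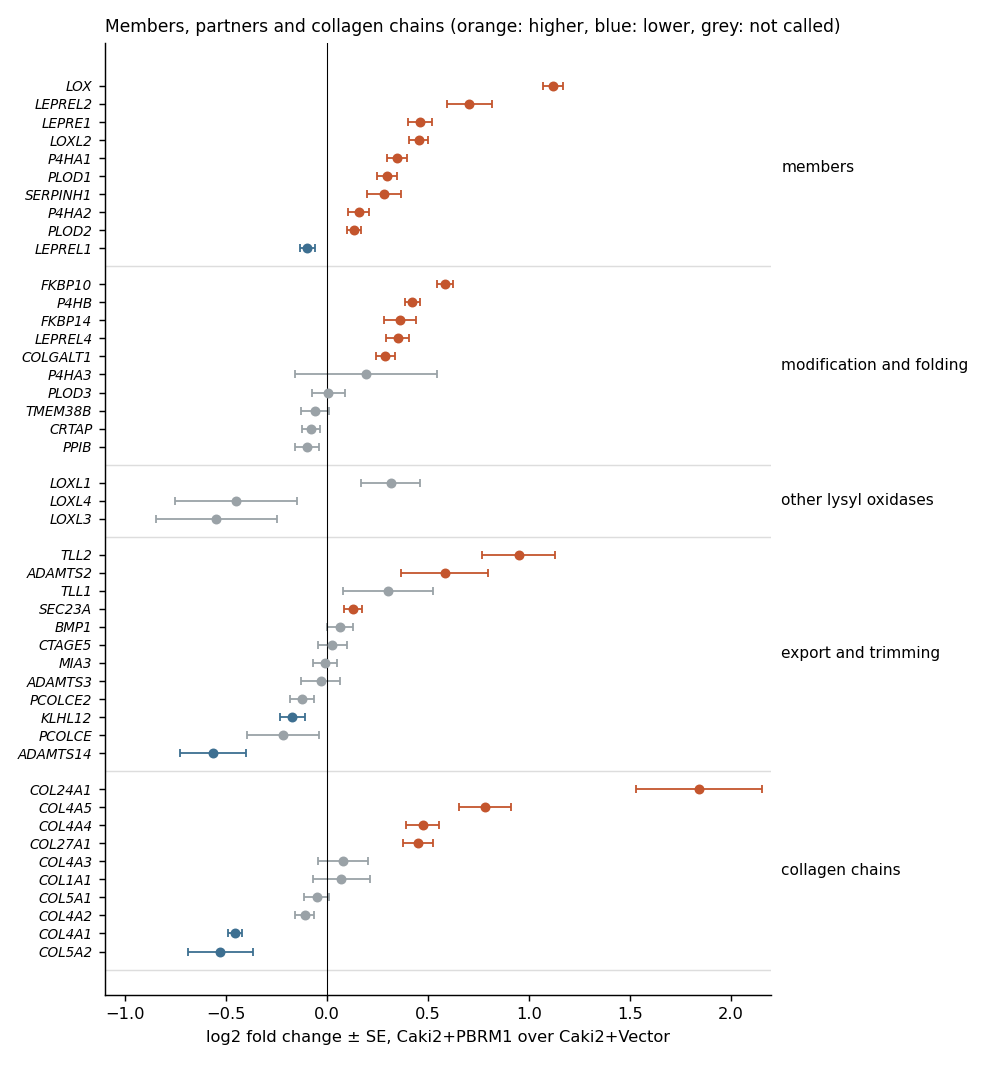
Log2 fold change with SE (x axis) of the 10 enzymes (top block, headed members) and of the tested genes of 4 related lists, coloured by the limma call at an adjusted p under 0.05. Calls in the modification and folding block are all to the right of 0, no other lysyl oxidase is called, and the export and collagen chain blocks hold calls on both sides.

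Of the 12 genes of procollagen export and trimming, all tested, 3 were called higher and 2 lower, with a median log2 fold change of 0.01. For this and the next 2 lists, the shares over all tested genes were 16.2% called higher and 13.0% lower. The called genes were the proteases TLL2 (0.95), ADAMTS2 (0.58) and ADAMTS14 (-0.56), the coat protein SEC23A (0.13) and the ubiquitin ligase adaptor KLHL12 (-0.17). ADAMTS2 was at 23.7 ± 5.2 and 35.5 ± 3.9, and its call was lost in DESeq2, with total count scaling, with quantile normalization and without Caki2+Vector A. The call of SEC23A was lost in DESeq2 and with either scaling, that of KLHL12 in DESeq2 and without Caki2+Vector A, and that of ADAMTS14 in DESeq2, so TLL2 alone of the 5 kept its call in each of these alternatives. Of the 3 genes that deliver copper to enzymes such as LOX, the importer SLC31A1 was called higher (log2 fold change 0.16, adjusted p = 0.0316 by limma), a call lost in DESeq2 and with total count scaling, and ATP7A, which loads copper in the Golgi, had a log2 fold change of -0.14 (adjusted p = 0.0952). Of 5 hydroxylases that use oxygen but do not modify collagen, 4 were tested and 2 called higher. They were the HIF prolyl hydroxylases EGLN1 and EGLN3, with log2 fold changes of 0.40 and 0.56, while EGLN2 was listed at 0 in every sample. Of the 19 called genes in all these lists, 6 lost their call in DESeq2 and 3 with total count scaling. With quantile normalization 2 lost it, without Caki2+Vector A 2, and in edgeR with TMM 0. None changed direction in these 5 alternatives. Without Caki2+Vector A none could, because the groups did not overlap in any of the 19 genes.

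Across the 6 samples, the 3 genes whose log2 values were most like those of LOX were FAT3, TGFB2 and LAMA1, with Pearson r of 0.9997, 0.9995 and 0.9995. These values describe a step between 2 groups that all 3 genes share with LOX, together with little spread within the groups. FAT3, an atypical cadherin, went from 67.9 ± 2.3 to 275.5 ± 2.5. TGFB2, a ligand of the TGF-beta family, went from 569.0 ± 1.8 to 740.2 ± 3.7, and LAMA1, a laminin chain of basement membranes, from 220.3 ± 4.1 to 467.4 ± 12.0.

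On the GRCh37 build used for the counts, LOX lies at chr5:121398890-121414108 on the minus strand, PLOD2 at chr3:145752926-145881512 on the minus strand, P4HA1 at chr10:74766975-74856732 on the minus strand, LEPREL1 at chr3:189674517-189840226 on the minus strand and LEPREL2 at chr12:6937572-6949011 on the plus strand. LEPREL2 was also the target of a qRT-PCR assay in the study, and its primers are shown because they fix which exons that assay reads. In the transcript ENST00000290510.10, with 16 exons, the forward primer lies in exon 10 at chr12:6943159-6943176 and the reverse primer in exon 11 at chr12:6946170-6946189, so the amplicon joins 2 neighbouring exons. The RNA-Seq count instead takes reads from all exons.
LEPREL2 forward primer: gttggatgggctgctcac
LEPREL2 reverse primer: cgaccacgatagccagacct

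Since 9 of the enzymes moved in one direction, their promoters were searched for the letters ACGTG and GCGTG, the core of hypoxia response elements, on either strand, in RefSeq windows of 250 bases before to 50 after each start (GRCh38.p14). ACGTG also lies within CACGTG, the E-box of MYC and USF proteins, which reads as ACGTG on both strands and is counted for each. Of 27305 genes with a window, 52.4% held either motif and 24.9% held ACGTG. Of the 10 enzymes 9 had a window, 7 held either motif and 5 held ACGTG, with none in the windows of P4HA2 and LEPREL2. The 5 were LOX, PLOD2, P4HA1, LEPREL1 and SERPINH1, and LOXL2 had no window. These 9 enzymes had 13 windows and the 27305 genes had 35116, and a gene with more windows has more chances of a match. A match is a description of the letters and not of a bound site.

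The first LOX window held 4 ACGTG, at 185, 116, 98 and 42 bases before the start, and the PLOD2 window 2 ACGTG and 1 GCGTG. The P4HA1 window held 1 ACGTG. LEPREL1, the gene that was called lower, had a CACGTG at 195 bases before its second start and a GCGTG at 52. These matches lie in genes called higher and in the gene called lower, and their part in the changes was not tested. The stretches that hold these motifs, with 20 bases on each side and the motif in capitals, lie at chr5:122078277-122078464 for LOX, chr3:146161306-146161417 for PLOD2, chr10:73096928-73096972 for P4HA1 and chr3:190120925-190121112 for LEPREL1, all on the minus strand of GRCh38.p14 and read 5′ to 3′ on that strand.
LOX: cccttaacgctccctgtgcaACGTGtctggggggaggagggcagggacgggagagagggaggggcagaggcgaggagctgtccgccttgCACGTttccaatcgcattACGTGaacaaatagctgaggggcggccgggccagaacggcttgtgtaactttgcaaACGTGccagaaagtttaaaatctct
PLOD2: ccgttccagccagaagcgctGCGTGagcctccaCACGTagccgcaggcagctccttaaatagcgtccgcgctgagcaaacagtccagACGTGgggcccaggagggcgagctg
P4HA1: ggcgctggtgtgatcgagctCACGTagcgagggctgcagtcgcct
LEPREL1: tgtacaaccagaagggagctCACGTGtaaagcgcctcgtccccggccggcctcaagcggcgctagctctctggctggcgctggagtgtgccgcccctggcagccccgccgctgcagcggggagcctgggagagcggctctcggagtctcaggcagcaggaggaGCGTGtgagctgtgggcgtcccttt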

How the data were processed

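Poly(A) RNA of 6 Caki2 samples, 3 per group as labelled, was sequenced as paired-end reads. Per the study's methods and the submitters' processing notes, the authors aligned reads to hg19 with STAR, counted them per gene with HTSeq on a UCSC annotation and scaled them by DESeq2 size factors. The deposited values are these normalized counts, a signal per gene that is comparable between samples. Every value became a whole read count once multiplied by its library's size factor (0.834 to 1.19, tolerance 0.01). Library strandedness is not given in the sources used here. The enzymes and the gene lists were chosen with earlier results of these data known.

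Values were tested as log2(normalized count + 1) with limma 3.58.1 (trend, robust) in R 4.3.3, without covariates, over the 13303 genes with at least 10 normalized counts in at least 3 samples. Fold changes on this scale understate those of low genes. The adjusted p-values rest on the spread between these 3 samples per line. In limma the variance of each gene is drawn toward a trend over all tested genes. They thus do not measure the spread of that gene alone. Genes named beside the enzymes were those called in each list (at most 6, by adjusted p), P4HB, PLOD3, CRTAP and PPIB in any case, and the 3 genes closest to LOX by Pearson r. Genes named as markers, uncalled list members and chromosome neighbours of the enzymes were chosen after their values were seen. Count tests on the recovered reads with edgeR 4.0.16 (4004 genes called) and DESeq2 1.42.0 (2553 called), voom, other scalings, filters, pseudocounts and left-out samples were alternatives. The limma script was tested on simulated data.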

Additional observations from a re-analysis of the deposited data

How the results depend on the processing

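Over 18 alternatives each, the log2 fold changes of the 10 enzymes kept their direction in all 180 recomputations, and 159 also kept their side of the threshold. The adjusted p under 0.01, the filters on low values and the block on the replicate letter cannot change these fold changes. In those settings the direction was fixed in advance, and only the side of the threshold could move. Leaving out 1 sample or changing the pseudocount could alter the size of the fold changes. It could not turn their direction, because the groups of each of the 10 genes did not overlap. P4HA1, PLOD1, LEPRE1, LEPREL2, LOX and LOXL2 were called in every one. The number of enzymes called higher was 9, and 7 in DESeq2, with total count scaling or at an adjusted p under 0.01, and it ran from 7 to 9 when 1 sample was left out. The number called lower was 1, and 0 in DESeq2, with no filter on low values or at an adjusted p under 0.01, and from 0 to 1 when 1 sample was left out. Of all genes, 1734 were called lower, against 1057 in DESeq2, 2777 with total count scaling and 1025 at an adjusted p under 0.01. Higher calls were 55.4% of all calls, but 36.9% with total count scaling, under which the median of all genes moved to -0.06. The cause of these shifts was not tested. The difference in PLOD2 share ran from -1.62 to 1.24 percentage points when 1 sample was left out, and took the positive sign without Caki2+Vector A. The shares of P4HA1, LOX, LOXL2 and LEPREL2 kept their direction with each sample left out. For LOX, LOXL2 and LEPREL2 the groups did not overlap, so leaving out 1 sample could not turn the direction. Only the P4HA1 share had overlapping groups. Those of LEPRE1, LEPREL1 and PLOD1 were not recomputed in this way, and their groups did not overlap per kb either.

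The letters A, B and C did not pair the samples: deviations of same-letter samples correlated at 0.0059, -0.0077 and 0.0138 across genes. A fit blocked on the replicate letter (replicate block) called 9 enzymes higher and 1 lower, and 2249 genes higher and 1858 lower. LEPREL2 rests on 95 to 214 reads per sample, the fewest of the 10.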
